A study of Mus musculus with 30 samples.

Results

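The insulin-like growth factor (IGF) axis and the PAPP-A proteases were followed in mouse fracture callus through 10 genes: the ligands *Igf1* and *Igf2*, the receptor *Igf1r*, the binding protein genes *Igfbp2*, *Igfbp3*, *Igfbp4*, *Igfbp5* and *Igfbp6*, and the protease genes *Pappa* and *Pappa2*. These 10 genes, of 55416 in the count table, were selected by symbol with earlier results of the same data known, and *Pappa2* was chosen by its 10-dpf values in the knockout, so its values at 10-dpf are given as a description with no test. The callus came from 30 mice between 7 and 12 weeks of age with a non-stabilized closed fracture of the tibia, collected at 3, 6, 10 or 14 days post fracture (dpf). P-Apex1KO mice carried Prrx1-Cre, which is active in the limb mesenchyme, and the Apex1C/C alleles, so cells of other origin in the callus keep *Apex1*. WT littermates were Prrx1-Cre+/-;Apex1C/+, Apex1C/C or Apex1C/+ mice, and the labels do not say which of these a given WT mouse was. There were 4 WT and 4 P-Apex1KO mice at 3-dpf, 5 and 3 at 6-dpf, 4 and 3 at 10-dpf, and 4 and 3 at 14-dpf, where all 3 P-Apex1KO mice and 1 WT mouse (replicate 1) were female.

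IGF1 and IGF2 are secreted growth factors that act mainly through the IGF1 receptor, and in bone they are known for promoting the growth and differentiation of chondrocytes and osteoblasts. In the extracellular space most of each ligand is held by IGF binding proteins. The metalloproteinases PAPP-A and PAPP-A2 cut binding proteins and so release ligand: PAPP-A is known for cutting IGFBP4 and IGFBP5, PAPP-A2 for cutting IGFBP3 and IGFBP5, and the stanniocalcins STC1 and STC2 inhibit both enzymes. These are properties of the proteins, and only RNA was measured here.

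All 10 genes were present in every library. On GRCm39, the build the reads were aligned to, *Pappa2* (ENSMUSG00000073530) lies on the minus strand of chromosome 1 from 158539297 to 158808060, *Pappa* (ENSMUSG00000028370) on the plus strand of chromosome 4 from 65042411 to 65275746, and *Igfbp3* (ENSMUSG00000020427) on the minus strand of chromosome 11 from 7156086 to 7164179. *Igf1* (ENSMUSG00000020053) lies on chromosome 10 from 87693642 to 87772904, *Igf2* (ENSMUSG00000048583) on chromosome 7 from 142204503 to 142220694 and *Igf1r* (ENSMUSG00000005533) on chromosome 7 from 67601518 to 67883416. *Igfbp2* (72863606 to 72891634) and *Igfbp5* (72897091 to 72914043) are neighbours on chromosome 1 on opposite strands, *Igfbp4* lies on chromosome 11 from 98932064 to 98945218 and *Igfbp6* on chromosome 15 from 102052697 to 102057953. RefSeq's table of promoters (build GRCm38.p6) had an entry for 9 of the 10 genes, all but *Pappa*. The 250 bases before the start are shown for *Pappa2* and *Igfbp3*, the members with the largest genotype differences at 10- and at 6-dpf, with capitals for the letters found in a search for an AP-1 site (TGACTCA, either strand), the core of a hypoxia response element (ACGTG or GCGTG, either strand) and a TATA box (TATAAA or TATATA, forward strand). APEX1 is known to reduce AP-1 and HIF-1α, which is why these letters were searched.
Pappa2, chr1:158958176-158958425, minus strand: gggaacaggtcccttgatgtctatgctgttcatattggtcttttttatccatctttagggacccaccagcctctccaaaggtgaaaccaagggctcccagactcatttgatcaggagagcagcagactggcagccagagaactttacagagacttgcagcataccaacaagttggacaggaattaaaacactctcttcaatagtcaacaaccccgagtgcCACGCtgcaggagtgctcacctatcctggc
Igfbp3, chr11:7213924-7214173, minus strand: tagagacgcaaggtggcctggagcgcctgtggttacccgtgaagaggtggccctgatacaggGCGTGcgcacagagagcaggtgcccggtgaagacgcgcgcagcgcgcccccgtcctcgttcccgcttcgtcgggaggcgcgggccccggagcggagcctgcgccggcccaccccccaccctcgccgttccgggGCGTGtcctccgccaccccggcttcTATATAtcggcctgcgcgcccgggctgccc
The *Pappa2* window held 1 hypoxia core, which starts 30 bases before the gene's start. The *Igfbp3* window held 2 hypoxia cores, at 188 and 55 bases before the start, and a TATA box at 30 bases before it. Neither window held the AP-1 letters. Of 32851 promoter windows of the same length, 38.6% held a hypoxia core, 11.5% a TATA box and 4.46% an AP-1 site, so these matches are common and are a description of the letters, not of binding.

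*Apex1*, the targeted gene, checked the labels. Its level in CPM (read counts scaled to a common library total, with TMM normalization over the 30 mice) was 15.1 to 15.9 in P-Apex1KO and 20.7 to 28.9 in WT mice at 6-dpf, 14.1 to 16.8 against 16.95 to 27.5 at 10-dpf, and 14.2 to 18.6 against 19.8 to 27.2 at 14-dpf, without overlap at any of these time points. At 10-dpf the gap was narrow, and the genotypes overlapped when the normalization was made over the 10-dpf mice alone. Among all genes, 20.6%, 19.3% and 42% did not overlap at 6-, 10- and 14-dpf. In the test *Apex1* was called lower at 6-dpf (log2 fold change -0.67, adjusted p = 0.0071 by edgeR) and at 10-dpf (-0.65, adjusted p = 0.0278 by edgeR). At 14-dpf it was not called (-0.29, adjusted p = 0.367 by edgeR), so the labels there are checked less well. At 3-dpf the libraries labelled P-Apex1KO held 18.4 to 34.6 CPM and the WT libraries 26.5 to 33.1 CPM, so *Apex1* did not separate these libraries and each 3-dpf result below rests on the labels. Libraries held 18334389 to 43111491 counts on genes. In RNA of whole callus, fewer cells of a type and less RNA per cell cannot be told apart. Callus markers were present throughout: none of the 12 cartilage, 10 osteoblast or 10 mesenchyme and fibroblast marker genes was at 0 in a whole group. At 10-dpf WT replicate 3 stood apart from the other WT mice in several members, and results that rest on it are given with and without it.

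**Figure D1:**
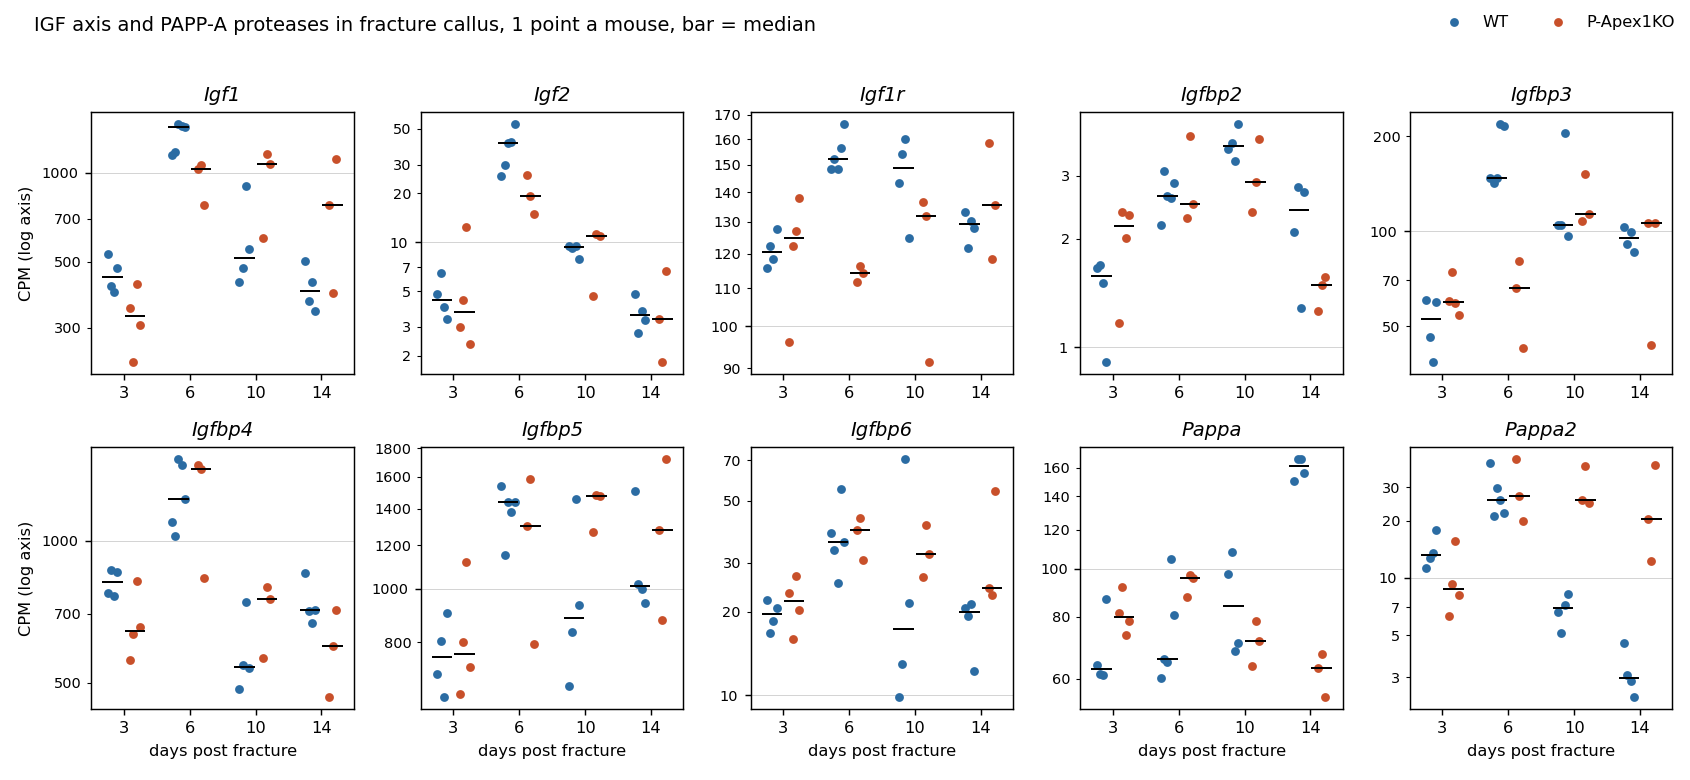
CPM on log axes (vertical) against days post fracture (horizontal) for the 10 genes, 1 point for each mouse, blue for WT and orange for P-Apex1KO, with a black bar at the median of each group; each panel has its own scale. At 14-dpf the 4 WT mice sit at 150 to 166 CPM of *Pappa* and the 3 P-Apex1KO mice at 55.2 to 67.2, while the order is the opposite for *Pappa2*.

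Compared per kilobase of exon, the binding protein genes *Igfbp4* and *Igfbp5* were the most abundant members in all 8 groups, and *Igf1* came next. At 6-dpf in WT mice *Igfbp4* had 284 ± 46.7 CPM per kb (SD, n = 5), *Igfbp5* 232 ± 23.8, *Igf1* 130 ± 15.2, *Igfbp3* 48.8 ± 10.9 and *Igfbp6* 27.2 ± 8.03. *Igf1r* at 7.80 ± 0.375, *Pappa* at 6.83 ± 1.65 and *Igf2* at 6.20 ± 1.77 did not differ beyond their spread, and *Pappa2* at 2.696 ± 0.748 and *Igfbp2* at 1.29 ± 0.162 closed the order. Nor did *Igfbp4* and *Igfbp5* differ beyond their spread in these mice, and at 10-dpf their order in WT mice was the opposite, with *Igfbp5* at 162 ± 56.6 and *Igfbp4* at 131 ± 25.6 CPM per kb (SD, n = 4). The level of *Igf2* is uncertain, since 58.4% of its exon bases are shared with the readthrough gene *Gm49394*, which itself received 0 to 7 counts in a library. How reads over both genes were counted is not stated, so *Igf2* may be understated here and in its place in this order. *Igfbp2* was the member with the fewest counts, 26 to 133 in a library, so counting error is part of its spread.

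The summed level of the 5 binding protein genes per kilobase overlapped between the genotypes at each time point, with medians in WT and P-Apex1KO mice of 341 and 305 CPM per kb at 3-dpf, 604 and 591 at 6-dpf, 312 and 472 at 10-dpf, and 367 and 367 at 14-dpf. The makeup of that sum did not always overlap. *Igfbp3* made up 6.50% to 9.98% of it in WT mice at 6-dpf and 3.15% to 3.53% in P-Apex1KO mice. At 3-dpf *Igfbp4* made up 51.5% to 56.8% in WT and 45.4% to 49.5% in the libraries labelled P-Apex1KO, and *Igfbp5* 34.9% to 40.0% and 40.1% to 45.6%. At 10-dpf the share of *Igfbp5* was 42.9% to 48.3% in WT and 49.2% to 54.2% in P-Apex1KO mice, and at 14-dpf that of *Igfbp6* was 2.51% to 4.27% and 4.80% to 7.63%. In every other gene and time point the shares overlapped. Shares of the same sum depend on each other, so those of *Igfbp4* and *Igfbp5* at 3-dpf are not separate results. The gap of *Igfbp5* there was narrow. These shares are given as values with no test, and there is no background of all genes to set beside them.

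At 3-dpf no member passed the test. edgeR's quasi-likelihood test called 0 of the 10 members and 0 of 19866 genes, a background of 0%, although 2 members and 1216 genes had an unadjusted p under 0.05 and DESeq2 called 85 genes, none of them a member. The 2 members were *Igf1*, with 397 to 531 CPM in the WT mice and 230 to 422 CPM in the libraries labelled P-Apex1KO (log2 fold change -0.47, SE 0.19, adjusted p = 0.769 by edgeR), and *Igfbp4*, with 763 to 867 against 559 to 823 CPM (log2 fold change -0.26, SE 0.11, adjusted p = 0.814 by edgeR). No member separated the genotypes without overlap, where 3.66% of all genes did.

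From 3- to 6-dpf, as the soft callus forms, nearly the whole axis rose in WT mice. In the model of both time points 9 of the 10 members rose, where 30.5% of all genes tested changed in either direction, and the median log2 change of the 10 was 0.87 against -0.03 over all genes. *Igf2*, the ligand best known from fetal growth, went from 3.38 to 6.43 CPM in the 4 mice of 3-dpf to 25.6 to 53.5 CPM in the 5 mice of 6-dpf (log2 change 2.95, SE 0.36, adjusted p = 3.8e-05 by edgeR). *Igfbp3*, which carries most of the IGF of the circulation, went from 38.6 to 60.8 CPM to 142 to 218 CPM (log2 change 1.76, SE 0.20, adjusted p = 1.6e-05 by edgeR), and *Igf1* from 397 to 531 CPM to 1148 to 1462 CPM (log2 change 1.51, SE 0.16, adjusted p = 7.24e-06 by edgeR). In these 3 genes no mouse of 6-dpf fell within the range of 3-dpf. Over the same step the summed cartilage markers of WT mice went from 613 to 679 CPM to 34400 to 61400 CPM and the osteoblast markers from 14500 to 17500 CPM to 38400 to 53800 CPM, and their part in these changes was not tested. The other binding protein genes, *Igf1r* and *Pappa2* rose by log2 changes of 0.32 to 0.92, and *Pappa* had 61.0 to 87.0 CPM at 3-dpf and 60.2 to 105 CPM at 6-dpf (log2 change 0.13, adjusted p = 0.472 by edgeR). With library size alone as the scaling, which moves the median change of all genes to -0.27, the rises of *Igf1r* (log2 change 0.07), *Igfbp2* and *Igfbp4* no longer passed, and *Igfbp2* did not pass without WT replicate 4 of 3-dpf (adjusted p = 0.0578 by edgeR).

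In P-Apex1KO mice 5 of the 10 members rose over the same step, where 14% of all genes tested changed: *Igf1*, *Igf2*, *Igfbp4*, *Igfbp6* and *Pappa2*. *Igf1* rose as far as in WT mice, from 230 to 422 CPM to 781 to 1063 CPM (log2 change 1.55, SE 0.18, adjusted p = 8.18e-05 by edgeR), and the difference between the genotypes in this change was 0.05 with an SE of 0.24. *Pappa2* went from 6.31 to 15.6 CPM to 19.97 to 42.2 CPM (log2 change 1.56, SE 0.26, adjusted p = 0.0017 by edgeR). The rise of *Igfbp6* did not pass in 4 of the 16 fits that left out 1 mouse, those without replicate 2 or 4 of 3-dpf and replicate 1 or 2 of 6-dpf (adjusted p = 0.0566 to 0.119 by edgeR). *Igfbp3* had 54.4 to 74.0 CPM at 3-dpf and 42.7 to 80.6 CPM at 6-dpf (log2 change 0.05, SE 0.21, adjusted p = 0.912 by edgeR). It was the member whose change from 3- to 6-dpf differed between the genotypes in the test of that difference: the genotype difference at 6-dpf minus that at 3-dpf was -1.70 on the log2 scale (SE 0.29, adjusted p = 0.0101 by edgeR), where 1.3% of all genes passed, and it passed in each of the 16 fits without 1 mouse. For *Igf1r* the same difference was -0.39 (SE 0.13, adjusted p = 0.18 by edgeR), and it passed without the library labelled P-Apex1KO replicate 1 of 3-dpf. The difference rests in part on the 3-dpf libraries, where *Apex1* did not follow the label.

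At 6-dpf the calluses of P-Apex1KO mice held less *Igfbp3*, *Igf1r* and *Igf2* than those of WT mice. These 3 of the 10 members passed the test, all of them lower, where 10.9% of all genes tested were called, and the median log2 fold change of the 10 was -0.05 against 0.01 over all genes. *Igfbp3* had 147, 142, 148, 218 and 215 CPM in the 5 WT mice and 66.3, 80.6 and 42.7 CPM in the 3 P-Apex1KO mice. Every P-Apex1KO mouse thus lay below every WT mouse, and the log2 fold change was -1.44 (SE 0.24, adjusted p = 0.00804 by edgeR, called in all 8 fits without 1 mouse). *Igf1r* had 148, 152, 148, 156 and 166 CPM in WT and 112, 116 and 114 CPM in P-Apex1KO mice. The mice of each genotype lay close together and the genotypes did not overlap (log2 fold change -0.41, SE 0.08, adjusted p = 0.0122 by edgeR, and 0.0876 without P-Apex1KO replicate 1). *Igf2* had 25.6, 29.9, 40.7, 41.2 and 53.5 CPM in WT and 25.9, 19.4 and 14.8 CPM in P-Apex1KO mice. The highest P-Apex1KO mouse lay just above the lowest WT mouse, and the call (log2 fold change -0.84, SE 0.23, adjusted p = 0.0497 by edgeR) did not pass without WT replicate 2, 3, 4 or 5 or any of the 3 P-Apex1KO mice (adjusted p = 0.0684 to 0.164 by edgeR). With every gene of at least 1 count tested, *Igfbp3* had an adjusted p of 0.0527 and *Igf1r* remained as the only member called.

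*Igf1* at 6-dpf had 1148 to 1462 CPM in WT and 781 to 1063 CPM in P-Apex1KO mice. These ranges did not overlap either, and the log2 fold change of -0.43 (SE 0.16, adjusted p = 0.112 by edgeR) did not pass, except with DESeq2 (adjusted p = 0.025). In all, 3 of the 10 members separated the genotypes at 6-dpf, *Igf1*, *Igf1r* and *Igfbp3*, where 20.6% of all genes did. The remaining binding protein genes overlapped, with log2 fold changes of -0.10 to 0.06. *Pappa* had 60.2 to 105 CPM in WT and 87.7 to 97.3 CPM in P-Apex1KO mice (log2 fold change 0.28, adjusted p = 0.257 by edgeR), and it passed as higher with library size alone (log2 fold change 0.48, adjusted p = 0.0254 by edgeR), under which *Igf1r* and *Igf2* did not pass. *Pappa2*, with 21.2 to 40.1 and 19.97 to 42.2 CPM, had a log2 fold change of 0.23 (SE 0.20, adjusted p = 0.526 by edgeR).

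Marker genes of the callus tissues moved with these members at 6-dpf. The summed level of 12 cartilage markers was 34400 to 61400 CPM in WT and 3050 to 5640 CPM in P-Apex1KO mice, with all 12 called lower. That of 10 osteoblast markers was 38400 to 53800 and 17800 to 27900 CPM, with 9 called lower. The sums of 12 skeletal muscle markers (5780 to 10600 and 12800 to 27900 CPM, 10 called higher) and 10 macrophage markers (1680 to 2130 and 2860 to 3270 CPM, 8 called higher) moved the other way, and 10 mesenchyme and fibroblast markers overlapped (18200 to 24900 and 15600 to 24000 CPM). No marker of these lists was at 0 in a whole group. The part of tissue composition in the member differences was not tested.

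**Figure D2:**
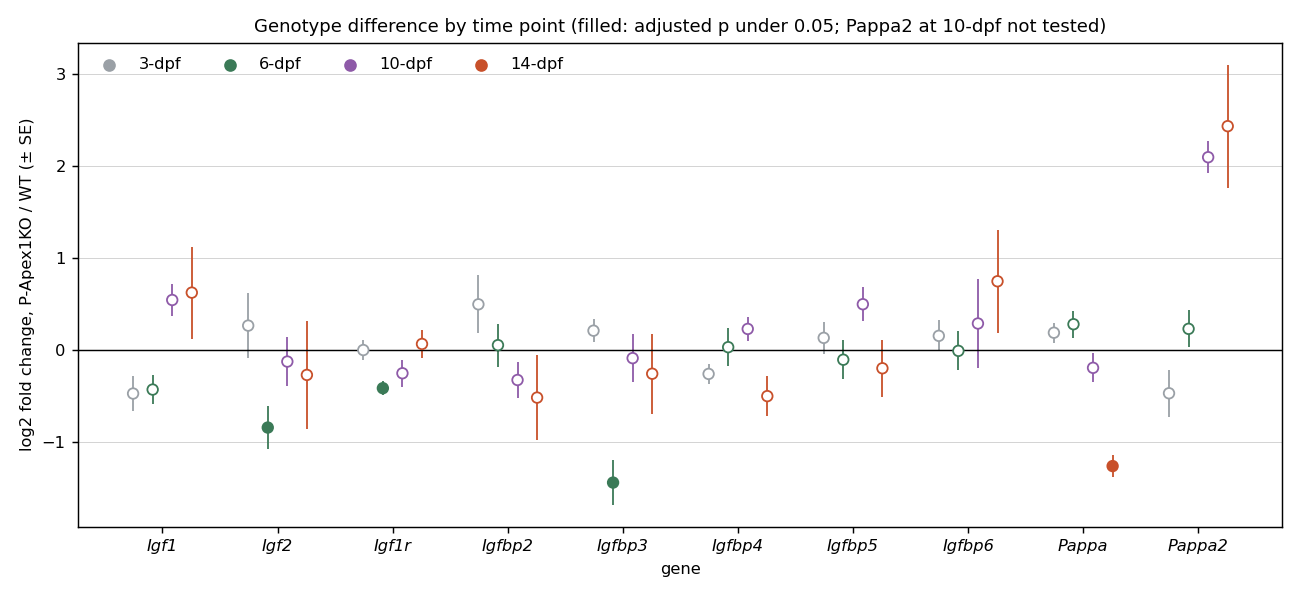
Log2 fold change of P-Apex1KO over WT (vertical, bars are ± 1 SE) for the 10 genes (horizontal) at 3-, 6-, 10- and 14-dpf (colours), with filled points where the adjusted p was under 0.05. The filled points are *Igf2*, *Igf1r* and *Igfbp3* at 6-dpf and *Pappa* at 14-dpf, all below 0, and the highest points are *Pappa2* at 10-dpf (2.10, not tested) and 14-dpf (2.43).

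At 10-dpf *Pappa2*, the member chosen by these values, had 6.64, 5.12, 7.21 and 8.21 CPM in the 4 WT mice and 25.8, 38.8 and 24.9 CPM in the 3 P-Apex1KO mice. The lowest P-Apex1KO mouse was above the highest WT mouse, and the fitted log2 fold change was 2.10 (SE 0.17). Of the 9 members that were tested, edgeR called 0, where 6.46% of all genes were called, from which nothing is read because the choice of *Pappa2* used this contrast. Of the 9, 2 had an unadjusted p under 0.05, as had 4588 of the 18910 genes tested, and these 2, *Igf1* and *Igfbp5*, were among the 2187 genes called by DESeq2. *Igf1* had 429, 478, 905 and 551 CPM in WT and 604, 1157 and 1076 CPM in P-Apex1KO mice (log2 fold change 0.55, SE 0.17, adjusted p = 0.095 by edgeR and 0.0161 by DESeq2). *Igfbp5*, whose protein is stored in bone matrix, had 666, 836, 1454 and 934 CPM in WT and 1267, 1483 and 1473 CPM in P-Apex1KO mice (log2 fold change 0.50, SE 0.18, adjusted p = 0.141 by edgeR and 0.0467 by DESeq2). In both genes WT replicate 3 was the WT mouse within the range of the P-Apex1KO mice.

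Without WT replicate 3, edgeR called *Igf1* (log2 fold change 0.73, adjusted p = 0.037), *Igfbp5* (0.72, adjusted p = 0.0209) and *Igfbp6* (0.999, adjusted p = 0.0138) as higher in P-Apex1KO mice. This fit, 1 of 7 that each left out 1 mouse, removes the WT mouse that lay within or above the P-Apex1KO range in these genes. Its calls therefore add no support, and the share of all genes called in it is not given. *Igfbp6*, a binding protein with a preference for IGF2, had 9.87, 12.98, 70.7 and 21.6 CPM in WT and 26.6, 41.1 and 32.2 CPM in P-Apex1KO mice, so replicate 3 alone of the WT mice exceeded the P-Apex1KO mice (log2 fold change with all mice 0.29, SE 0.49, adjusted p = 0.774 by edgeR). The same WT mouse had a summed mesenchyme and fibroblast marker level of 19700 CPM, against 7220 to 10500 CPM in the other 3 WT mice and 11200 to 19200 CPM in the P-Apex1KO mice. Its *Pappa2* level of 7.21 CPM was within that of the other WT mice. *Pappa2* was the only member whose genotypes did not overlap at 10-dpf, where 19.3% of all genes did not. *Igf2*, *Igf1r*, *Igfbp2*, *Igfbp3*, *Igfbp4* and *Pappa* overlapped, with log2 fold changes of -0.32 to 0.23. Beside these values, the summed osteoblast markers were 42300 to 60700 CPM in WT and 18100 to 27500 CPM in P-Apex1KO mice (8 of 10 called lower) and the macrophage markers 1070 to 1820 and 1900 to 2370 CPM (6 of 10 called higher). Adipocyte markers summed to 47.8 to 61.9 and 88.1 to 141 CPM (4 of 5 called higher). Hypertrophic chondrocyte markers summed to 13500 to 16700 and 8000 to 11800 CPM (1 of 4 called lower). The sums of endothelial (789 to 890 and 696 to 752 CPM, 1 of 8 called lower) and eosinophil markers (46.0 to 69.5 and 81.4 to 89.0 CPM, 1 of 4 called higher) did not overlap either. The part of these tissues in the level of *Pappa2* and the other members was not tested.

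At 14-dpf *Pappa* was lower in the P-Apex1KO callus. It had 150, 166, 166 and 156 CPM in the 4 WT mice and 63.1, 67.2 and 55.2 CPM in the 3 P-Apex1KO mice. The 2 groups lay far apart with little spread in either, and *Pappa* was the 1 member of 10 past the threshold (log2 fold change -1.26, SE 0.12, adjusted p = 0.00123 by edgeR), where 11.3% of all genes were called. The call held in all 7 fits without 1 mouse (adjusted p = 0.000164 to 0.00869 by edgeR). Of these, the fit without WT replicate 1 compared P-Apex1KO females with WT males and had no sex term. Because all P-Apex1KO mice of this time point were female, the model with sex rests on the WT female, replicate 1, whose *Pappa* level of 150 CPM was the lowest of the WT mice. Among females alone, where the 1 WT mouse is assumed to vary like the others, the log2 fold change was -1.26 as well, with an adjusted p of 0.0515 by edgeR, and no member was called.

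*Pappa2* was again higher, in mice that its choice did not use: 4.53, 3.06, 2.87 and 2.36 CPM in WT and 20.4, 12.2 and 39.3 CPM in P-Apex1KO mice. The lowest P-Apex1KO mouse lay above the highest WT mouse, the WT female. The log2 fold change was 2.43 with an SE of 0.67, and it did not pass in the model with sex (adjusted p = 0.0634 by edgeR). Without the sex term it was 2.94 (adjusted p = 0.0015 by edgeR), and DESeq2 with sex gave 2.44 (adjusted p = 0.000115). It also passed when WT replicate 1 (adjusted p = 0.00251, a fit without sex), P-Apex1KO replicate 2 (adjusted p = 0.0122) or P-Apex1KO replicate 3 (adjusted p = 0.0217, all by edgeR) was left out. It did not pass in the other 4 fits without 1 mouse (adjusted p up to 0.104), nor with DESeq2's size factors in edgeR, with no filter on low counts (adjusted p = 0.225) or among females alone (adjusted p = 0.197, by edgeR), and the fold change ranged from 1.87 to 3.16 over the fits without 1 mouse. *Igf1* had 340 to 504 CPM in WT and 393 to 1118 CPM in P-Apex1KO mice (log2 fold change 0.63, SE 0.50, adjusted p = 0.461 by edgeR). Its fold change was 1.05 without WT replicate 1 (adjusted p = 0.0488), 0.23 without P-Apex1KO replicate 3 (adjusted p = 0.713) and 0.96 with all 30 mice in one model (adjusted p = 0.0165, all by edgeR). The fit without WT replicate 1 compares P-Apex1KO females with WT males, so genotype and sex cannot be told apart in it.

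*Pappa*, *Pappa2* and *Igfbp6* separated the genotypes at 14-dpf, 3 of the 10 members, where 42% of all genes did. *Igfbp6* had 12.2 to 21.4 CPM in WT and 23.0 to 54.5 CPM in P-Apex1KO mice (log2 fold change 0.75, SE 0.56, adjusted p = 0.432 by edgeR). The other members overlapped, among them *Igfbp3* at 85.6 to 103 and 43.5 to 106 CPM and *Igf1r* at 122 to 133 and 118 to 159 CPM. The summed osteoblast markers were 71500 to 97600 CPM in WT and 17800 to 19200 CPM in P-Apex1KO mice (7 of 10 called lower), the cartilage markers 3120 to 8260 and 5610 to 6870 CPM (11 of 12 called higher and 1 lower in the model with sex), and the muscle markers 2850 to 10200 and 10500 to 31500 CPM (0 of 12 called). Macrophage markers summed to 1790 to 1880 CPM in WT and 2280 to 2580 CPM in P-Apex1KO mice (8 of 10 called higher and 2 lower), neutrophil precursor markers to 951 to 1480 and 2060 to 2580 CPM (3 of 5 called higher), erythroid markers to 297 to 386 and 780 to 894 CPM (3 of 5 called higher) and endothelial markers to 943 to 1020 and 700 to 843 CPM (4 of 8 called lower and 1 higher). The sums of lymphocyte (82.4 to 112 and 181 to 507 CPM, 1 of 10 called higher), eosinophil (44.3 to 90.9 and 120 to 202 CPM, 0 of 4 called) and tendon markers (29.5 to 40.8 and 45.0 to 99.0 CPM, 0 of 3 called) did not overlap either. Their part in the difference of *Pappa* and *Pappa2* was not tested. The WT female had the lowest cartilage (3122 CPM) and the highest muscle sum of the WT mice. The model with sex rests on this mouse, so the 11 cartilage calls in effect set the P-Apex1KO mice against her. The cartilage sums of the genotypes overlapped.

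From 10- to 14-dpf *Pappa* rose in WT mice, from 68.3 to 108 CPM to 150 to 166 CPM (log2 change 0.93, SE 0.14, adjusted p = 0.00126 by edgeR, called in all 14 fits without 1 mouse). The summed osteoblast markers of WT mice went from 42300 to 60700 CPM to 71500 to 97600 CPM over this step and the cartilage markers from 19000 to 49300 CPM to 3120 to 8260 CPM, and their part was not tested. *Igf2* fell from 7.85 to 9.50 CPM to 2.74 to 4.82 CPM (log2 change -1.33, SE 0.36, adjusted p = 0.0348 by edgeR) and *Igfbp2* from 3.29 to 4.17 CPM to 1.29 to 2.79 CPM (log2 change -0.79, SE 0.23, adjusted p = 0.0473 by edgeR), calls that were lost in 7 and in 12 of the 14 fits without 1 mouse. For *Igf2* these were the fits without any WT mouse but replicate 1 of 14-dpf, with adjusted p up to 0.0976, and *Igfbp2* passed only without P-Apex1KO replicate 1 or 2 of 14-dpf, with adjusted p otherwise up to 0.12 by edgeR. These were 3 of the 9 members tested, where 11.1% of all genes were called. In P-Apex1KO mice edgeR called 0 of the 9, where 0.259% of all genes were called, and 2 of the 9, *Igf2* and *Igfbp2*, had an unadjusted p under 0.05. *Pappa* there had 63.8 to 78.4 CPM at 10-dpf and 55.2 to 67.2 CPM at 14-dpf (log2 change -0.31, SE 0.17, adjusted p = 0.451 by edgeR). The difference between the genotypes in this change of *Pappa* was -1.23 on the log2 scale (SE 0.24, adjusted p = 0.045 by edgeR), the 1 member called where 0.436% of all genes were. It passed in 3 of the 14 fits without 1 mouse, those without WT replicate 2 or P-Apex1KO replicate 1 of 10-dpf or P-Apex1KO replicate 2 of 14-dpf, and its adjusted p ranged from 0.0246 to 0.157 over the 14. *Pappa2*, described with no test in this step, had 5.12 to 8.21 CPM at 10-dpf and 2.36 to 4.53 CPM at 14-dpf in WT, and 24.9 to 38.8 and 12.2 to 39.3 CPM in P-Apex1KO mice.

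The proteases were also set against each other per kilobase of exon. The ratio of *Pappa2* to *Pappa* was 0.189 to 0.238 in WT and 0.0829 to 0.228 in the libraries labelled P-Apex1KO at 3-dpf, and 0.263 to 0.715 and 0.224 to 0.516 at 6-dpf. At 10-dpf it was 0.0506 to 0.124 in WT and 0.372 to 0.53 in P-Apex1KO mice, and at 14-dpf 0.0162 to 0.0322 and 0.195 to 0.764. The groups overlapped at 3- and 6-dpf and lay apart at 14-dpf. They also lay apart at 10-dpf, where *Pappa* overlapped and *Pappa2* was chosen by its values, so that separation is a description only. In WT mice the ratio at 14-dpf lay below that of any other time point, with *Pappa* at its highest and *Pappa2* at its lowest. Levels at 6- and 10-dpf were not compared by a test, because the naming of the samples changes between these time points.

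**Figure D3:**
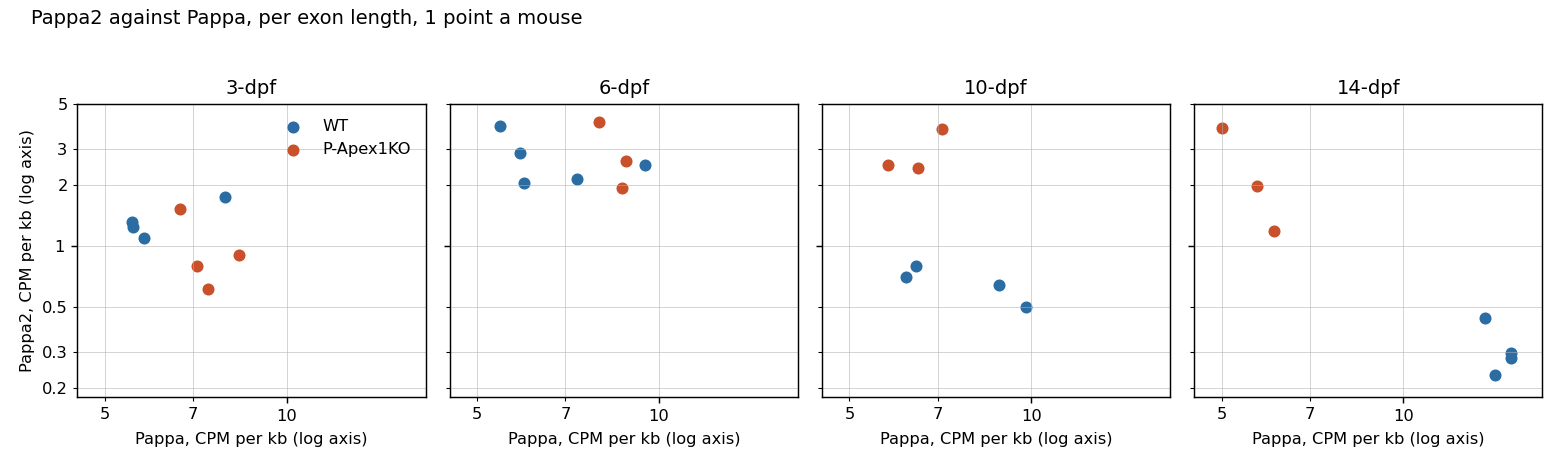
*Pappa2* (vertical) against *Pappa* (horizontal), both in CPM per kb on log axes that are the same in the 4 panels, 1 point for each mouse at 3-, 6-, 10- and 14-dpf, blue for WT and orange for P-Apex1KO. At 14-dpf the WT mice lie at the lower right, with ratios of 0.0162 to 0.0322, and the P-Apex1KO mice at the upper left, with ratios of 0.195 to 0.764.

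The rest of the pathway was described through a list of 38 further genes. At 3-dpf edgeR called 0 of the 36 tested, of which 5 had an unadjusted p under 0.05. From 3- to 6-dpf 15 of 35 rose and 6 fell in WT mice, and 6 rose and 3 fell in P-Apex1KO mice, which is 60% and 25.7% of the list beside 30.5% and 14% of all genes. At 6-dpf 8 of 35 passed, 7 lower and 1 higher, a share of 22.9% beside the 10.9% of all genes. Both stanniocalcin genes were among the lower ones. *Stc2* had 10.4, 8.14, 14.3, 8.42 and 15.9 CPM in WT and 4.17, 3.91 and 2.35 CPM in P-Apex1KO mice (log2 fold change -1.5, SE 0.22, adjusted p = 0.00369 by edgeR). *Stc1* had 15.01, 13.2, 12.1, 18.02 and 18.9 CPM in WT and 8.304, 8.596 and 4.602 CPM in P-Apex1KO mice (log2 fold change -1.06, SE 0.23, adjusted p = 0.021 by edgeR). Neither gene's genotypes overlapped at 6-dpf, and both overlapped at 10- and 14-dpf.

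*H19*, the imprinted noncoding RNA next to *Igf2*, had 2918 to 4426 CPM in WT and 1148 to 2113 CPM in P-Apex1KO mice at 6-dpf (log2 fold change -1.26, SE 0.22, adjusted p = 0.00869 by edgeR). *Igf2r*, the receptor that clears IGF2 from the cell surface, had 338 to 432 and 204 to 295 CPM (log2 fold change -0.57, adjusted p = 0.0333 by edgeR). Of the 14 genes of signalling inside the cell, the docking protein gene *Irs1* (369 to 567 and 142 to 250 CPM) and the adaptor genes *Grb10* (933 to 1384 and 364 to 574 CPM) and *Grb14* (70.3 to 109 and 25.3 to 49.9 CPM) were lower, by log2 fold changes of -1.09, -1.21 and -1.12. *Stat5b*, a transcription factor of growth hormone signalling, was the 1 gene called higher (77.8 to 92.8 and 101 to 153 CPM, log2 fold change 0.54, adjusted p = 0.0437 by edgeR). These 8 genes did not overlap between the genotypes. *Igf2r*, *Stc1* and *Stat5b* did not pass without WT replicate 2 or 4, and *Igf2r*, *Stc1* and *Irs1* not without P-Apex1KO replicate 1 (adjusted p = 0.0504 to 0.155 by edgeR for these). *Stat5b* also failed without WT replicate 3 or 5 or P-Apex1KO replicate 2 or 3 (adjusted p = 0.0519 to 0.0607 by edgeR), and *Igf2r* without P-Apex1KO replicate 3 (adjusted p = 0.0555).

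At 10-dpf 5 of 35 genes of the list passed, a share of 14.3% beside the 6.46% of all genes. *Adam12*, a metalloproteinase that cuts IGFBP3 and IGFBP5, was the 1 gene called lower, with 343, 337, 238 and 261 CPM in WT and 126, 167 and 141 CPM in P-Apex1KO mice (log2 fold change -0.97, SE 0.16, adjusted p = 0.0173 by edgeR). The 4 called higher were *Prg2* (log2 fold change 0.63), *Stat5b* (0.45), *Grb14* (0.40) and *Stat5a* (0.34). *Prg2* encodes major basic protein, whose proform inhibits PAPP-A and which eosinophils make in quantity: it had 68.6 to 140 CPM in WT and 135 to 191 CPM in P-Apex1KO mice, beside a sum of 4 eosinophil markers of 46.0 to 69.5 and 81.4 to 89.0 CPM (1 called higher). The part of eosinophil number was not tested. *Adam12* did not pass without WT replicate 1 or 2 or P-Apex1KO replicate 1 (adjusted p = 0.0551 to 0.0655 by edgeR), and *Stat5a* passed in none of the 7 fits without 1 mouse. *Grb14* did not pass in 6 of these 7 fits, *Stat5b* in 4 and *Prg2* in 2 (adjusted p up to 0.118, 0.175 and 0.135 by edgeR). *Grb14* and *Prg2* also failed without the sex term and with all 30 mice in 1 model (adjusted p up to 0.223 and 0.409 by edgeR). The 5 calls were lost without WT replicate 1 or P-Apex1KO replicate 1 (0 called), 1 gene was called without WT replicate 2, 2 without P-Apex1KO replicate 3 and 3 without P-Apex1KO replicate 2, while 7 were called without WT replicate 4. The share of all genes called in these fits is not given, so the counts are not read further.

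At 14-dpf 3 of 35 passed, all lower, a share of 8.57% beside the 11.3% of all genes. *Adam12* lay at 390, 388, 387 and 385 CPM in WT and 125, 90.1 and 114 CPM in P-Apex1KO mice, the narrowest WT group of those named here (log2 fold change -1.81, SE 0.15, adjusted p = 0.000883 by edgeR). *Akt1*, the kinase downstream of the receptor, had 253 to 272 and 154 to 176 CPM (log2 fold change -0.61, adjusted p = 0.0153 by edgeR), and the adaptor gene *Shc1* 166 to 200 and 115 to 128 CPM (log2 fold change -0.43, adjusted p = 0.0326 by edgeR, and 0.084 to 0.091 without WT replicate 2, 3 or 4). With library size alone neither *Akt1* (log2 fold change -0.34, adjusted p = 0.0721 by edgeR) nor *Shc1* (-0.16, adjusted p = 0.366 by edgeR) passed. Without 1 mouse the list had 2 calls when WT replicate 2, 3 or 4 was left out, 6 or 7 when a P-Apex1KO mouse was, and 10 without WT replicate 1. This last fit compares P-Apex1KO females with WT males, so genotype and sex cannot be told apart in it. The share of all genes called in the fits without 1 mouse is not given, so nothing is read from their counts. With all mice *Stc1*, *Stc2*, *Irs1* and *Grb10* did not pass at 10- or 14-dpf.

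**Figure D4:**
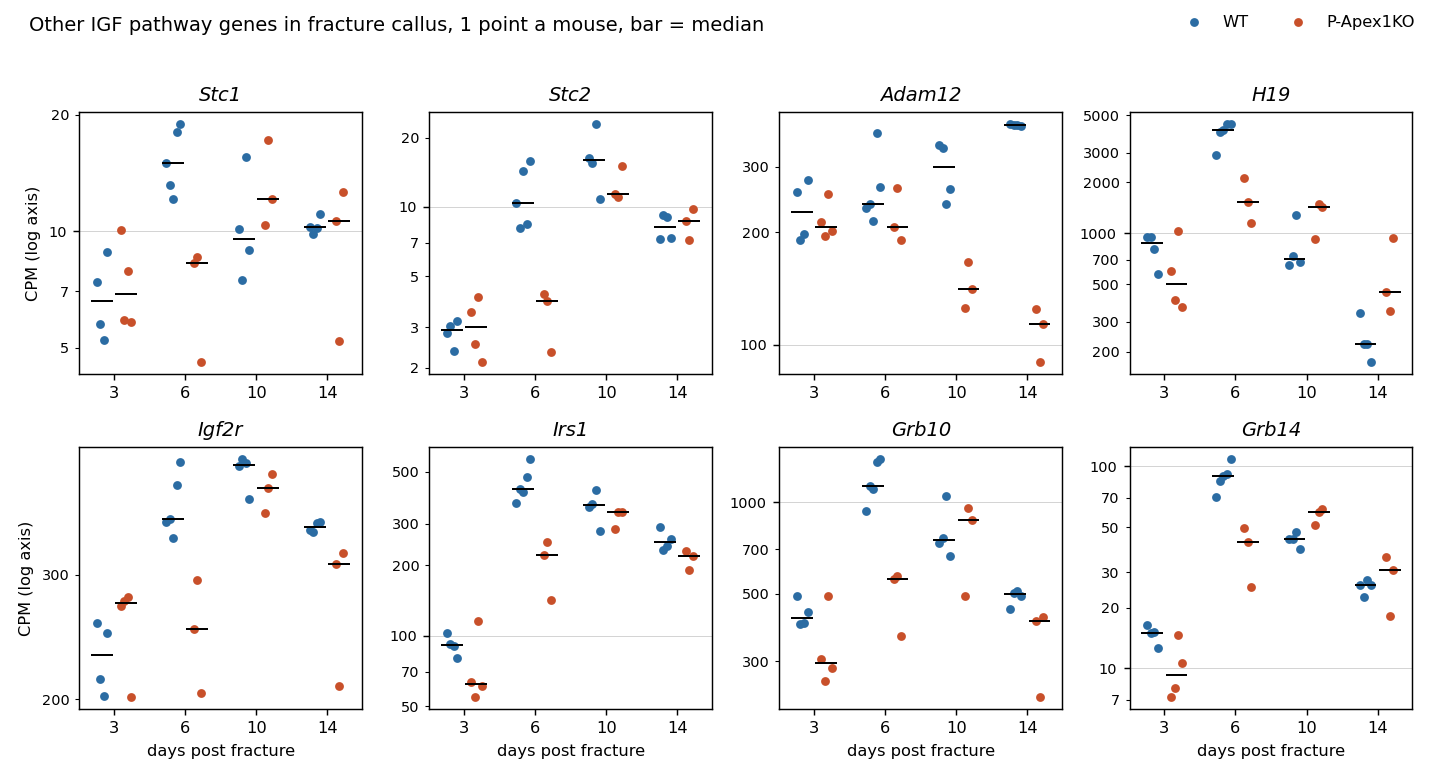
CPM on log axes (vertical) against days post fracture (horizontal) for 8 further genes of the pathway, 1 point for each mouse, blue for WT and orange for P-Apex1KO, with a black bar at each median. At 6-dpf the 3 P-Apex1KO mice lie below the 5 WT mice in all panels but that of *Adam12*, whose genotypes lie apart at 10-dpf (126 to 167 and 238 to 343 CPM) and 14-dpf (90.1 to 125 and 385 to 390 CPM).

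The genes most like each member were read from the correlation of log2 CPM over the 30 mice after the mean of each time point was subtracted, among 13795 protein-coding genes. The genotype difference was not subtracted, so these values describe mice that share genotype and tissue makeup, and no p is given. Each r of *Pappa2* includes the mice whose values were used to choose this gene, so its relations are a description only. *Pappa2* was most like the complement genes *C3* (r = 0.922) and *Masp1* (0.913) and *Gldn* (0.871), and *Pappa* most like the lysosomal enzyme genes *Ctsz* (0.920) and *Hexa* (0.891) and the phosphatase gene *Ptpn1* (0.894). *Igf1* was most like *Igsf10* (0.933), *Ctnnal1* (0.924) and *Sfrp1* (0.920), *Igfbp3* most like *Nid2* (0.905), *Clic4* (0.901) and *Slc35b4* (0.895), and *Igfbp6* most like *Angptl1* (0.899), *Adamtsl4* (0.892) and *Map6* (0.892). For *Igf2* the nearest were *Tmem231* (0.850), *Mdk* (0.834) and *Fzd2* (0.811), for *Igf1r* *Phactr4* (0.813), *Med13l* (0.789) and *Gsk3b* (0.785), and for *Igfbp2* *Ranbp3* (0.749), *Ercc2* (0.724) and *Ccdc124* (0.711). *Igfbp4* lay nearest *Castor1* (0.859), *Dact3* (0.795) and *Fbln1* (0.782), and *Igfbp5* nearest *Angptl2* (0.818), *Timp3* (0.796) and *Mkx* (0.794). Among the members themselves *Pappa2* went with *Igf1* (r = 0.705) and against *Pappa* (r = -0.744), *Igf1* went with *Igfbp5* (0.720) and *Igfbp6* (0.708), and *Igfbp3* was unrelated in level to *Pappa* (0.003) and *Pappa2* (-0.009).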

How the data were processed

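The deposited table holds raw read counts for 55416 Ensembl genes in 30 callus libraries. The authors depleted rRNA and beta globin transcripts from total RNA, made stranded libraries, sequenced them paired-end, aligned with STAR 2.7.0d (per the submitters' processing notes) to mm39 and, per the paper's methods, counted uniquely mapped reads on Ensembl v104 with featureCounts. GENCODE M39, of the same build and later, gave positions and exon lengths to 54749 IDs.

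Genotype, time point and sex came from the labels. Counts were tested with edgeR's robust quasi-likelihood F test (version 4.0.16 under R 4.3.3), after TMM normalization and edgeR's own filter on low counts for that design, and adjusted by Benjamini-Hochberg over all genes tested at a threshold of 0.05, with sex as covariate as in the study, for each time point alone and for 3- with 6-dpf and 10- with 14-dpf. Alternatives were DESeq2 1.42.0, no sex term, other scalings and filters, all mice in 1 model, a replicate block and each mouse left out. Levels are CPM with TMM over the 30 mice. The precision is limited by 3 to 5 mice a group, and for *Igfbp2*, *Igf2* and, in WT mice, *Pappa2* also by counting.

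Members and lists were chosen with earlier results of these data known. Named are all members, the IGF pathway genes past the threshold at a time point (up to 10 by size of change), *Apex1* and the 3 protein-coding genes most correlated with each member (mean of at least 1 CPM, log2 CPM with a prior count of 2). The procedure was tested on simulated counts.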

Additional observations from a re-analysis of the deposited data

Results flagged for a closer look

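In 50 sets of values (each of the 10 genes in the 5 groups of 4 or 5 mice), 1 mouse lay far from the rest of its group in 3 sets, and chance gives about 1 in 20 sets. *Igfbp3* was 205 CPM in WT replicate 3 at 10-dpf, against 96.8 to 105 CPM in the other 3 WT mice. *Igfbp5* was 1508 CPM in WT replicate 1 at 14-dpf, the WT female, against 943 to 1021 CPM. *Pappa* was 87.0 CPM in WT replicate 4 at 3-dpf, against 61.0 to 64.1 CPM.

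The effect of genotype differed between time points in 2 members, by the test of the difference itself. For *Igfbp3* the genotype difference at 6-dpf minus that at 3-dpf was -1.70 on the log2 scale (adjusted p = 0.0101 by edgeR). For *Pappa* the difference at 14-dpf minus that at 10-dpf was -1.23 (adjusted p = 0.045 by edgeR), and it passed in 3 of 14 fits without 1 mouse.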

How the results depend on the processing

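Of 687 values recomputed with all mice under another setting, 597 were classed as unchanged, and of 972 recomputed without 1 mouse 812 were. The values include fold changes of single genes and counts of genes called. A tested fold change was unchanged if it kept its direction and side of the threshold, and values described with no test have no such side. A count was unchanged if it stayed close in size, whichever genes were called, so an unchanged count can hold different genes. None of the values that changed direction had passed the threshold. Counting limits *Igfbp2* and *Igf2*, and also *Pappa2* in WT mice, with 54 to 93 counts at 14-dpf. In the other members the number of mice sets the error. The cause of the changes that follow was not tested.

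Without the filter on low counts all genes called at 6-dpf went from 2212 to 2257, and members called from 3 to 1. At 10-dpf members called went from 0 to 2 with DESeq2 and 1 with library size alone, beside 1221, 2187 and 1313 of all genes. At 14-dpf they went from 1 to 2 with DESeq2, without sex, with library size alone, with at least 10 counts in every sample and with the replicate block, to 3 with all 30 mice in one model and to 0 among females alone, an alternative chosen after seeing the data that assumes the 1 WT female to vary like the others. The genotype difference at 14- minus 10-dpf went from 1 member to 0 with library size alone and with all 30 mice in one model, which also took the change in WT mice from 3 to 1. With the replicate block at 6-dpf all genes called went from 2212 to 677, and other pathway genes called from 8 to 4. At 10-dpf all genes called went from 1221 to 750 without sex, 1603 with all 30 mice in one model and 1279 with the replicate block. The other pathway genes called at 10-dpf went from 5 to 3 under each of these settings. At 14-dpf they went from 3 to 5 with DESeq2, library size alone and the replicate block, to 11 without sex, to 9 with all 30 mice and to 1 among females alone, while all genes called went from 2289 to 3064 with DESeq2, 2644 with library size alone, 3188 with the block, 6849 without sex, 6188 with all 30 mice and 140 among females alone.

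Library size alone moved the median change of all genes to 0.20 at 6-dpf and 0.31 at 14-dpf, with 814 of 3594 and 766 of 2644 called genes lower, against 1137 of 2212 and 1424 of 2289 with TMM, and at 10-dpf 464 of 1313 against 651 of 1221.

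The replicate block stood in for a paired analysis. Same-numbered mice did not deviate together in every pair (correlations of 0.069 to 0.411 at 3-dpf, -0.097 to 0.076 at 6-dpf, -0.205 to 0.22 at 10-dpf and -0.252 to -0.077 at 14-dpf). The labels do not say whether they share a litter or day, and these correlations of few mice cannot decide it. At 6-dpf the block called *Igfbp3* and *Pappa* (higher, 0.57), at 14-dpf *Pappa* and *Pappa2*, and no member at 3- or 10-dpf.

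Log2 fold changes that turned direction with all mice were these. At 3-dpf *Igf1r* was -0.009 without sex, -0.006 without the filter, -0.049 with library size alone and -0.019 with the replicate block, where *Igf2* was -0.043. At 6-dpf *Igfbp6* was 0.041 without sex, 0.18 with library size alone, 0.004 with at least 10 counts and 0.24 with the replicate block, where *Pappa2* was -0.038. *Igfbp5* was 0.068 with library size alone and *Igfbp4* -0.018 with all 30 mice. At 10-dpf *Igf2* was 0.006 without sex and 0.12 with all 30 mice, and *Igfbp3* 0.004 with library size alone. At 14-dpf *Igfbp5* was 0.25 without sex, 0.061 with library size alone, 0.16 with all 30 mice and 0.13 with the replicate block, *Igf2* 0.14 without sex and *Igfbp3* 0.007 with library size alone.

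Without 1 mouse, members called ranged from 1 to 3 at 6-dpf, 0 to 3 at 10-dpf and 1 to 3 at 14-dpf, and pathway genes from 5 to 8, 0 to 7 and 2 to 10. The highest counts of 14-dpf, 3 and 10, came from the fit without WT replicate 1, in which genotype and sex cannot be told apart. The change from 10- to 14-dpf in WT ranged from 1 to 3 members, the genotype difference of these days from 0 to 1 and that at 6- minus 3-dpf from 1 to 2. These counts stand without the share of all genes called in the same fits, so nothing is read from them. Log2 fold changes that turned direction ranged at 3-dpf from -0.32 to 0.56 (*Igf2*), -0.066 to 0.084 (*Igf1r*), -0.14 to 0.32 (*Igfbp5*) and -0.089 to 0.27 (*Igfbp6*). At 6-dpf they ranged from -0.15 to 0.19 (*Igfbp2*), -0.13 to 0.22 (*Igfbp4*), -0.38 to 0.086 (*Igfbp5*) and -0.23 to 0.22 (*Igfbp6*), and at 10-dpf from -0.34 to 0.35 (*Igf2*), -0.28 to 0.26 (*Igfbp3*), -0.34 to 1.00 (*Igfbp6*) and -0.30 to 0.10 (*Pappa*). At 14-dpf they ranged from -0.86 to 0.31 (*Igf2*), -0.026 to 0.16 (*Igf1r*), -0.45 to 0.058 (*Igfbp3*) and -0.47 to 0.43 (*Igfbp5*), and the change of *Igfbp3* from 3- to 6-dpf in P-Apex1KO mice from -0.13 to 0.29, with -0.016 without replicate 4 of 3-dpf and -0.058 without replicate 1 of 6-dpf.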
